A study of Homo sapiens with 4 samples.

Results

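MEIS binding sites that lay inside introns and far from promoters made up 1692 of the 5169 reproducible MEIS sites found in human neural stem cells (hNSC), or 32.7% (Wilson 95% interval 31.5 to 34.0). A site was counted among them by position alone. Its summit, the base with the highest ChIP-seq signal, had to lie in an intron of the canonical transcript of a protein-coding gene and in no exon of such a transcript. It also had to lie more than 20 kb and at most 500 kb from the nearest canonical transcription start site (TSS) of a protein-coding gene. These are called far intronic sites here. The other 3477 sites comprised 1913 far intergenic sites at the same distances but outside the canonical transcripts of protein-coding genes. A further 690 sites lay between 1 and 20 kb from a canonical protein-coding TSS. The rest were 240 promoter sites within 1 kb of one, 578 sites further than 500 kb from any canonical protein-coding TSS and 56 far exonic sites. Strength and sequence took no part in the rule.

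The cells were untreated, commercially supplied human neural stem cells grown in serum-free medium on a coated surface. Chromatin was precipitated with a mixture of an antibody against MEIS1 and MEIS2 and an antibody against MEIS1, so a site does not tell which of these proteins was bound. There were 2 MEIS ChIP replicates and 2 Input samples, which held sheared chromatin without precipitation and entered only as the background against which the authors called peaks. There was no second condition. The methods name 2 batches of cells handled side by side, without saying which replicate came from which batch. Peak lists hold no expression values, so the cell type could not be checked against its marker genes. Sites are not replicates of the experiment, so each test below describes the sites of these libraries only.

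The MEIS proteins bind DNA through a homeodomain of the TALE type, which carries extra residues in a loop. They recognise the hexamer TGACAG and often bind DNA beside a PBX protein, another TALE factor, on a longer composite sequence that joins a PBX part to the MEIS hexamer. In the developing nervous system MEIS proteins act in the growth of progenitors and in neuronal differentiation. Regulatory elements far from promoters are common in the long introns of neural genes, and such an element may act on the gene that holds it or on a neighbouring gene. Position alone does not tell which gene, if any, a site regulates.

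The sequences under far intronic summits show the form in which MEIS motifs occurred there. The first set was chosen because these were the strongest far intronic sites in which the composite, TGACAG directly preceded by TGAT or TGAG, was centred within 50 bp of the summit. Each line gives 60 bases of the GRCh37 reference around the motif, printed 5′ to 3′ on the strand that carries it, with the composite in capitals.
PCCA, intron 21, chr13:101163010-101163069, plus strand: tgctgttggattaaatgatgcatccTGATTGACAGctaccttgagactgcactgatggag
LRP2, intron 9, chr2:170142216-170142275, minus strand: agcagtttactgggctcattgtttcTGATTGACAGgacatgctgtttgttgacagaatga
PTPRM, intron 2, chr18:7878451-7878510, minus strand: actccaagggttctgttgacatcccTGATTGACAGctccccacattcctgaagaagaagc
PRKAG2, intron 3, chr7:151406909-151406968, plus strand: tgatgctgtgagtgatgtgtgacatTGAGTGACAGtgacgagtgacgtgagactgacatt
MCTP1, intron 11, chr5:94227816-94227875, plus strand: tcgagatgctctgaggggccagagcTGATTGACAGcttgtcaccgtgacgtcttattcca

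PCCA encodes a subunit of propionyl-CoA carboxylase, LRP2 the endocytic receptor megalin, PTPRM a receptor tyrosine phosphatase, PRKAG2 a regulatory subunit of AMP-activated kinase and MCTP1 a membrane protein with calcium-binding C2 domains. Strength is given as the −log10 p that the peak caller assigned against Input. The PCCA site had a −log10 p of 423 and 504 in replicates 1 and 2. The LRP2 site had 385 and 295, and the PTPRM site 233 and 248. Values at PRKAG2 were 262 and 191, and at this MCTP1 site 161 and 195. The composite was centred between 3.5 and 37.5 bp from these summits. The genes named differ in function. These sites were chosen as the strongest with a central composite, so their values do not show the range of strengths at which it occurred.

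A second set shows strong far intronic sites with the MEIS hexamer alone near the summit, with TGACAG in capitals.
LGR4, intron 1, chr11:27466493-27466552, minus strand: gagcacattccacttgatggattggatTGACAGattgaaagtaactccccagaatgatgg
RSU1, intron 7, chr10:16740618-16740677, minus strand: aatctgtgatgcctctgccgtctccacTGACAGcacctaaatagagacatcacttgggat
MCTP1, intron 12, chr5:94220396-94220455, minus strand: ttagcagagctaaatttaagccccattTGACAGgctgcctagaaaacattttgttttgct
SEMA5A, intron 1, chr5:9452310-9452369, minus strand: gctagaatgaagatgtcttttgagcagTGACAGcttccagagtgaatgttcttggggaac

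A further set shows the central 101 bases, on the plus strand of the reference, of a pair of sites that were among the strongest of all and had no TGACAG in the 500 bp around their summits. Capitals mark TGACA, the first 5 bases of the hexamer, or its reverse complement TGTCA, where present. The WLS site holds it and the PRKCA site does not. The PKNOX2 site described below, also without TGACAG in its window, does not hold it in its central 101 bases either.
WLS, intron 10, chr1:68606904-68607004, plus strand: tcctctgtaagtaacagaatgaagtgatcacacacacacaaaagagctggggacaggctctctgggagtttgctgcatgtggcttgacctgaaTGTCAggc
PRKCA, intron 2, chr17:64370742-64370842, plus strand: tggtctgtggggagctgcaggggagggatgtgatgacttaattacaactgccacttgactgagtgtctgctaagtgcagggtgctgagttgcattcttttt

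The strongest MEIS site in these cells was a far intronic site. It lay in intron 10 of WLS, which encodes the carrier that brings Wnt proteins to the cell surface (chr1:68606197-68608194), 91.3 kb from the WLS TSS and 90.6 kb from that of DIRAS3. Replicate 1 gave a −log10 p of 3132.28 and replicate 2 one of 3008.3, and its fold enrichment over Input was 152 and 288. Far intronic sites held 5 of the 10 strongest places, 40 of the 100 strongest (40.0%, 30.9 to 49.8) and 177 of the 500 strongest (35.4%, 31.3 to 39.7), against 32.7% of all sites.

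The next strongest far intronic sites lay in genes of varied function. PKNOX2, itself a TALE homeodomain factor, held one in intron 1 (chr11:125103148-125105787), 70.3 kb from its TSS and with its summit 2 bp from the end of the intron, with a −log10 p of 1481.46 and 1906.49 in replicates 1 and 2. No TGACAG was present in its window. LGR4, a receptor for R-spondins that strengthens Wnt signalling, held one in intron 1 (chr11:27465008-27467082) with values of 1427.62 and 1847.81. Its window had 3 TGACAG occurrences, the nearest centred 3.5 bp from the summit and printed above. PCDH9, a protocadherin, held one in intron 2 (chr13:67701130-67703590) with 1552.09 and 1360.1. Its only TGACAG lay 175.5 bp from the summit.

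The site in intron 7 of RSU1, a protein of integrin adhesion complexes, had a −log10 p of 1747.86 and 1261.06 (chr10:16740044-16741969). PRKCA, a protein kinase C, held a site in intron 2 with 1592.83 and 1143.29 (chr17:64370190-64371725). The first of these had TGACAG 6.5 bp from its summit and the second had none in its window.

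DLGAP1, a scaffold of the postsynaptic density, held a site in intron 7 (chr18:3602289-3605594) with 1063.58 and 1126.68. It lay 852 kb from the DLGAP1 TSS, 154 kb from the canonical TSS of TGIF1 and 0.026 kb from the start of another annotated transcript. ZFPM2, a cofactor of GATA factors, held a site in intron 4 (chr8:106595514-106596719) with 1043.94 and 1086.25 and a TGACAG centred 0.5 bp from the summit. The site in intron 12 of MCTP1 (chr5:94219336-94221134) had 1062.81 and 1011.59. In all of these the fold enrichment was higher in replicate 2 than in replicate 1, for example 152 against 288 at WLS and 59.0 against 141 at ZFPM2, while the order of the −log10 p values went either way.

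Most far intronic sites were far weaker than these. The −log10 p in replicate 1 ran from 12.5 through a median of 34.4 to 3132.28, with quartiles of 20.6 and 71.1. In replicate 2 it ran from 15.3 through 40.8 to 3008.3, with quartiles of 25.7 and 81.8. The median fold enrichment was 6.43 in replicate 1 (quartiles 4.77 and 9.68) and 11.6 in replicate 2 (quartiles 8.49 and 18.4).

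**Figure D1:**
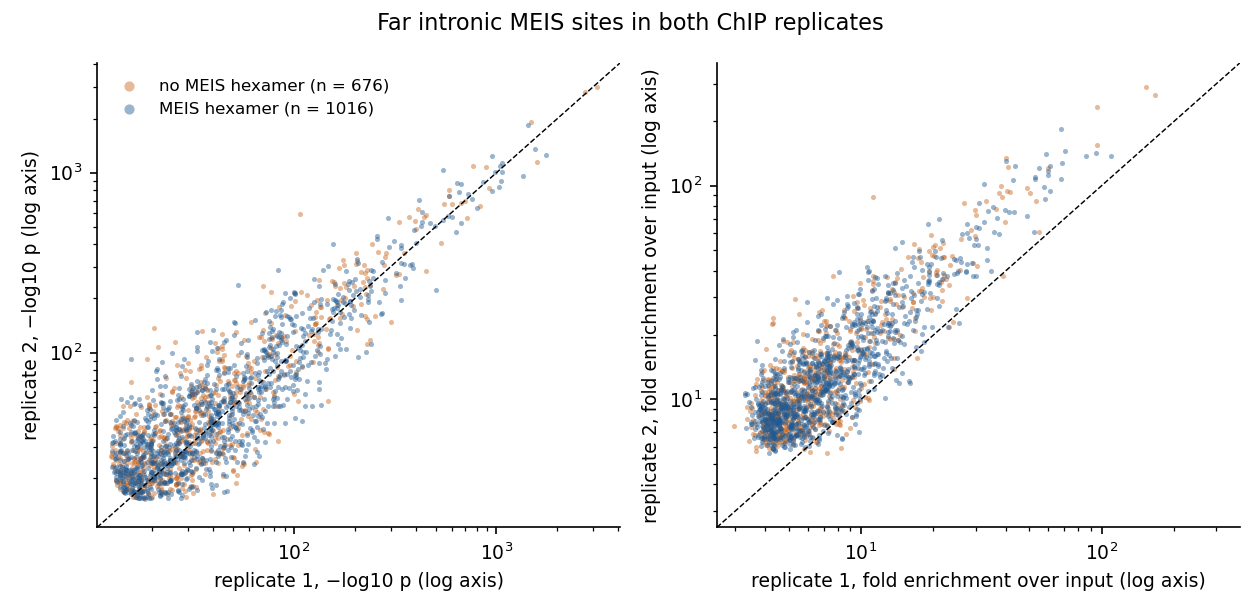
Each point is one of the 1692 far intronic sites, with replicate 1 on the horizontal and replicate 2 on the vertical log axis. The left panel plots −log10 p, the right panel fold enrichment over Input, blue points have TGACAG within the 500 bp window (n = 1016), orange points do not (n = 676), and the dashed line marks equal values. Nearly all points lie above the line in the fold panel, where 97.0% of sites were higher in replicate 2, and blue and orange points are intermingled in both panels.

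The replicates ranked the far intronic sites similarly, with a Spearman correlation across sites of 0.788 for −log10 p and 0.745 for fold enrichment (n = 1692 sites, which share 2 libraries, so no p is given). Fold enrichment was higher in replicate 2 at 1642 sites (97.0%), with a median ratio of 1.82 (quartiles 1.49 and 2.25). The −log10 p was higher there at 1093 sites (64.6%). Summits of the replicates were a median of 12 bp apart, and 83.6% of pairs lay within 50 bp of each other.

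Far intronic sites did not differ detectably in strength from the other sites. In replicate 1, 50.7% of them and 49.6% of the others were above the common median −log10 p (odds ratio 1.04, 95% interval 0.927 to 1.17, Fisher's exact test, two-sided, adjusted p = 0.566). For replicate 2 it was 51.1% against 49.4% (odds ratio 1.07, 0.955 to 1.204, Fisher's exact test, adjusted p = 0.303). Median peak width was 1106 bp against 1080 bp, and 51.6% and 49.2% were wider than the common median (odds ratio 1.10, 0.982 to 1.24, Fisher's exact test, adjusted p = 0.189). By class, the median −log10 p in replicate 2 was 40.8 at far intronic, 41.7 at far intergenic and 27.8 at promoter sites. Of the 11 single comparisons of this kind, 4 were called at an adjusted p of 0.05 (36.4%).

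Peaks at far intronic positions were kept as reproducible more often than peaks elsewhere. Reproducibility had been scored by the irreproducible discovery rate (IDR), which compares the ranks of peaks between replicates. Of the 10531 far intronic peaks called in replicate 1, 1698 (16.1%) overlapped a reproducible site, against 13.3% of peaks at other positions (odds ratio 1.26, 1.18 to 1.34, Fisher's exact test, adjusted p = 2.21e-11). In replicate 2, 1694 of 13630 (12.4%) did, against 10.3% (odds ratio 1.23, 1.160 to 1.31, Fisher's exact test, adjusted p = 2.15e-10). Over all positions, 14.1% of replicate 1 peaks and 10.9% of replicate 2 peaks did. The direction and the call were the same under all 5 alternative settings tried, with odds ratios between 1.12 and 1.38 for replicate 1 peaks and between 1.13 and 1.31 for those of replicate 2. Without peaks within 5 kb of any TSS, they were 1.12 in replicate 1 and 1.16 in replicate 2. The peaks at other positions included those at promoters, and far intergenic peaks were not compared alone. For scale, positions that meet the same rule make up 26.4% of the called bases of the genome, and the share of sites was 1.24 times as large. That ratio was not tested, and mappability was not taken into account.

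The MEIS hexamer occurred in most far intronic sites, and no difference from other sites was detected. It was present in the 500 bp around the summit at 1016 of 1692 sites (60.05%) and at 57.4% of the other sites (odds ratio 1.12, 0.991 to 1.25, Fisher's exact test, adjusted p = 0.325). Windows of the same length 2 kb to either side held it in 29.1% of cases. By number, 676 far intronic sites had no occurrence, 679 had 1, 266 had 2 and 71 had 3 or more. All consensuses were searched on both strands.

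**Figure D2:**
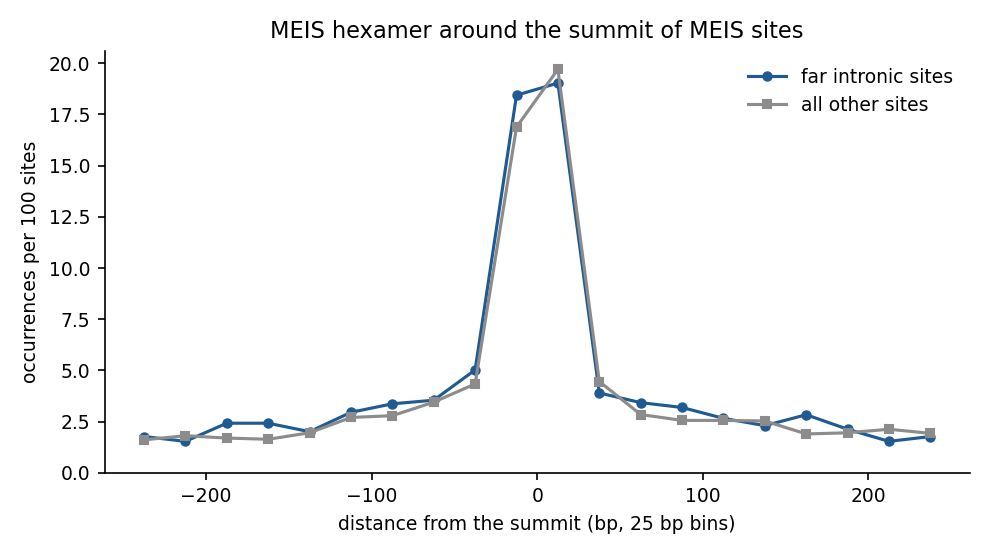
TGACAG occurrences per 100 sites (vertical axis) in bins of 25 bp by distance from the summit (horizontal axis, bp), for far intronic sites and for all other sites. The bins beside the summit hold 18.4 and 19.0 per 100 far intronic sites and 16.9 and 19.7 per 100 others, and the curves of the groups lie close together across the window.

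The hexamer was concentrated at the summit. Of 1460 occurrences in far intronic windows, 785 (53.8%) were centred within 50 bp of the summit, where 20.4% of the positions lie. At the other sites it was 1578 of 2832 (55.7%), and no difference was detected (odds ratio 0.924, 0.814 to 1.05, Fisher's exact test, adjusted p = 0.303). A TGACAG within 50 bp was present at 667 far intronic sites (39.4%) and at 1375 others (39.5%). No preferred orientation to transcription of the host gene was detected. Of the 674 sites with 1 TGACAG and a host gene on 1 strand, 336 (49.9%, 46.1 to 53.6) read TGACAG on the same strand (exact binomial test, p = 0.969).

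Sites were also split into 5 classes of like size by strength, as the −log10 p in the list of reproducible sites. At 99.6% of far intronic sites this value was the lower of the replicate values. From weakest to strongest, TGACAG was present in 58.1%, 57.4%, 53.8%, 66.9% and 64.0% of sites. The strongest class had −log10 p values from 76.1 upward and the weakest had 17.7 or less. These outer classes did not differ detectably, with 217 of 339 against 197 of 339 sites (odds ratio 1.28, 0.941 to 1.75, Fisher's exact test, adjusted p = 0.211). Among the 100 strongest far intronic sites, 44 had TGACAG within 50 bp of the summit.

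Sites without the whole hexamer often had most of it, as in the printed WLS sequence, though the PRKCA and PKNOX2 sites did not. In the central 100 bp, the 5 bases TGACA occurred at 1207 far intronic sites (71.3%, 69.1 to 73.4) and in 20.7% of windows 2 kb away. Among the 676 sites lacking TGACAG in their 500 bp, 371 (54.9%, 51.1 to 58.6) had TGACA in the centre, against 21.1% of their distant windows. When all 6-base words were ranked by the excess of sites over distant windows, TGACAG was the first of 2079 words, at 38.9% against 6.21%. TGTCAG followed in these far intronic sites at 30.4% against 5.53%. At the sites without TGACAG the leading words were TGACAA (161 sites, 23.8% against 5.33%) and TGTCAG (150 sites, 22.2% against 5.70%), with TGACAT in 155 sites. This ranking was looked at after the other values were known and is a description.

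Of 13 consensuses compared between far intronic and other sites, 1 was called (7.69%), the GC box of promoters. It occurred at 112 far intronic sites (6.62%) and at 11.3% of the others (odds ratio 0.558, 0.448 to 0.694, Fisher's exact test, adjusted p = 7.84e-07). Within strata of GC content the odds ratio was 0.636 (0.504 to 0.802, adjusted p = 0.00141, Mantel-Haenszel test in place of Fisher's exact test). Promoter sites, which are among the others, had it in 63.3% of cases. Against far intergenic sites alone, where it occurred in 7.27%, the odds ratio was 0.905 and the difference was not called (Fisher's exact test, adjusted p = 0.872). Against far intergenic sites, 0 of the 13 were called by Fisher's exact test, and 1, TGACAG, had an unadjusted p under 0.05, at 60.05% against 56.7% (odds ratio 1.15, 1.004 to 1.31, unadjusted p = 0.0459, adjusted p = 0.596). For the GC box, the direction against all other sites turned without the sites within 5 kb of the TSS of any transcript, to an odds ratio of 1.11 (adjusted p = 0.863 by Fisher's exact test).

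**Figure D3:**
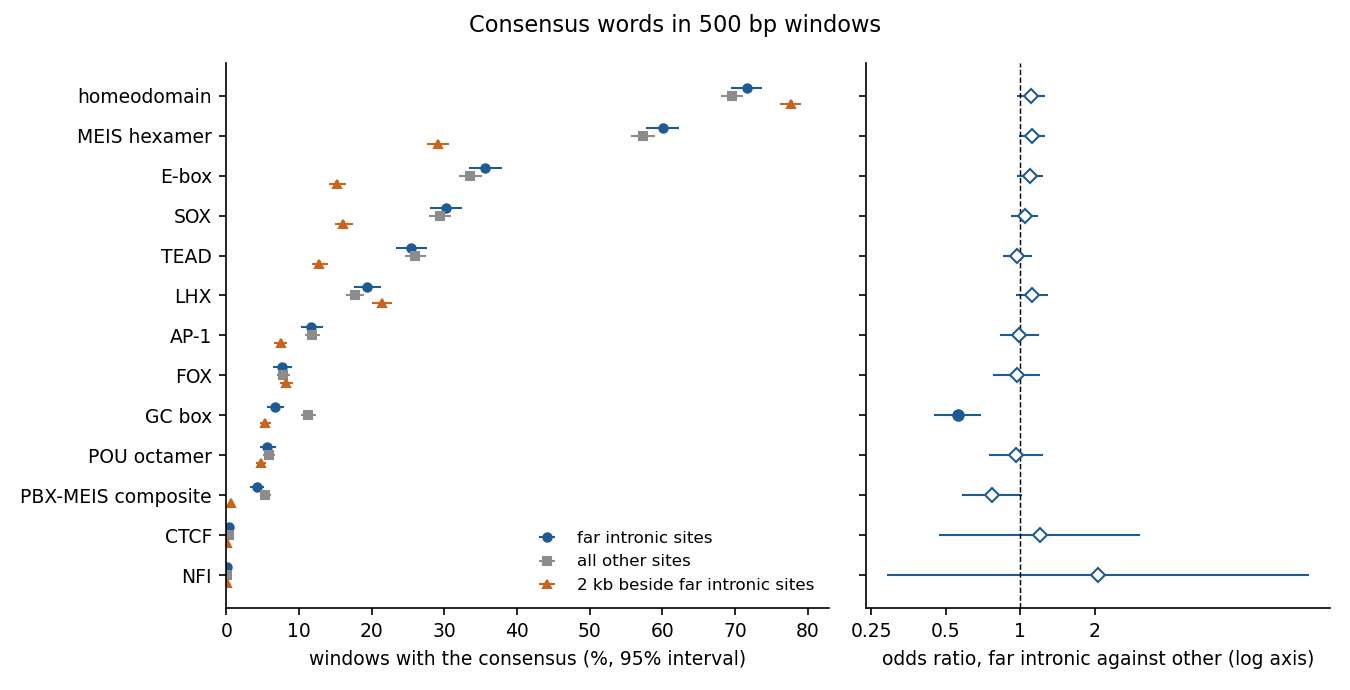
Left, the share of sites with each of 13 consensuses in the 500 bp window (horizontal axis, percent), with far intronic sites in blue, all other sites in grey, Wilson 95% intervals as bars, and windows 2 kb away from far intronic summits as orange triangles. Right, odds ratios of far intronic against other sites on a log axis with 95% intervals, filled where the adjusted p was at most 0.05. The GC box, at 6.62% against 11.3%, is the filled point.

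The PBX-MEIS composite was present at 70 far intronic sites (4.14%), 5.32% of other sites and 0.621% of windows 2 kb away. The odds ratio against other sites was 0.768 (0.580 to 1.02, Fisher's exact test, adjusted p = 0.325). The share was 3.97% at far intergenic sites and 17.9% at promoter sites. In 51 far intronic sites it was centred within 50 bp of the summit, as in the sequences printed above. From the weakest to the strongest class the share was 3.54%, 2.96%, 3.85%, 4.73% and 5.60%. Of the 785 TGACAG occurrences near far intronic summits, 6.50% directly followed TGAT or TGAG, against 3.01% of those further out. Near the other summits it was 10.3%, against 2.65% further out. The bases most often found before a central far intronic TGACAG were TGAC (29), TGAG (26) and TGAT (25).

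For consensuses of factors that may bind beside MEIS, no difference from the other sites was detected. The SOX consensus (ACAAAGG or ACAATGG), read by factors of neural progenitors, was present in 30.2% of far intronic sites, 29.4% of the others and 16.1% of the distant windows. For the TEAD consensus (ACATTCC or GCATTCC), read by effectors of the Hippo pathway, the shares were 25.4%, 26.0% and 12.8%. The adjusted p against other sites was 0.894 for each (Fisher's exact test). TGACAG, SOX or TEAD was present in 1354 far intronic sites (80.02%), all of them together in 77, and none in 338. No like count was made at the other sites or in the distant windows, so these counts do not set far intronic sites apart.

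The homeodomain core TAATT was the most frequent consensus at 71.6%, yet it was in 77.7% of windows 2 kb away and in 69.6% of other sites. It was called higher at far intronic positions when the strongest replicate 1 peaks stood in for the sites, without replicate 2 (odds ratio 1.203, adjusted p = 0.0300 by Fisher's exact test). AP-1 was in 11.7% of far intronic sites and 7.45% of distant windows, and a POU octamer in 5.61% and 4.70%. The E-box CAGCTG was in 35.6% and 15.2%. It can overlap the MEIS hexamer, and 99 far intronic sites, 16.4% of the 602 with this E-box, had TGACAG run on into CTG. CTCF was found at 7 sites, and NFI, as TTGGC and GCCAA 5 bases apart, at 2. Mean GC content was 42.3% (SD 6.06) in far intronic windows and 40.4% in windows 2 kb away. Above the common median of all sites lay 47.4% of far intronic sites and 50.7% of others (odds ratio 0.877, 0.781 to 0.985, Fisher's exact test, adjusted p = 0.0622), which was not called. Without replicate 2 it was (odds ratio 0.826, adjusted p = 0.00342 by Fisher's exact test).

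The rule requires distance from promoters, so the lengths and distances given here are in part set by it. The intron that held the summit had a median length of 57.8 kb (quartiles 19.0 and 124 kb), and 551 sites (32.6%) were in introns longer than 100 kb. The TSS of the host gene was a median of 122 kb away (quartiles 61.5 and 240 kb), and that of the nearest gene 96.3 kb. For 1184 sites (70.0%) the nearest canonical TSS was that of the host gene. For the other 508 (30.0%) it belonged to another gene. Intron 1 held 343 sites (20.3%, 18.4 to 22.3), beside 17.6% of the intron sequence that met the rule.

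By distance to the nearest TSS, 394 sites lay at 20 to 50 kb, 486 at 50 to 100 kb, 467 at 100 to 200 kb and 345 at 200 to 500 kb. The median −log10 p of the list in these bins was 29.3, 31.5, 28.2 and 31.1, and the share with TGACAG 62.9%, 59.7%, 60.2% and 57.1%. Neither value moved steadily with distance, and no test was run. At the edges of the rule, the site just inside 20 kb lay at 20.036 kb in CFAP251 (−log10 p 28.0) and the one just outside at 19.842 kb in EPHA4 (74.6). Just inside 500 kb was a site at 498.873 kb in TENM2 (18.4), and just outside one at 501.667 kb in UTRN (32.4). A further 367 intronic sites lay within 20 kb of a TSS and 92 beyond 500 kb.

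A distance to canonical TSSs does not exclude starts of other transcripts. With every annotated transcript counted, 452 far intronic sites (26.7%) lay within 5 kb of a TSS, against 359 far intergenic sites (18.8%; odds ratio 1.58, 1.35 to 1.85, Fisher's exact test, adjusted p = 4.82e-08). The direction turned with the smaller basic set of transcripts, to 208 (12.3%) against 303 (15.8%; odds ratio 0.745, 0.616 to 0.901, Fisher's exact test, adjusted p = 0.00703). Far intergenic sites lay outside canonical protein-coding transcripts only, so they may lie within other transcripts. Whether the class rule contributes to this difference was not tested. The share of all positions of each class within 5 kb of an annotated TSS was not computed. Of the far intronic sites, 322 were near the start of another transcript of the host gene, 67 near a long noncoding RNA and 63 near another gene, and 1240 (73.3%) were near none. TGACAG was present at 60.6%, 62.7%, 61.9% and 59.7% of these groups.

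Far intronic sites had a neighbouring site more often than others. Another site lay within 10 kb of 237 far intronic sites (14.0%) and of 356 others (10.2%; odds ratio 1.43, 1.20 to 1.70, Fisher's exact test, adjusted p = 2.50e-04). Each site of a pair counts for the other, so sites of a cluster are not independent. The interval and p do not take this into account. The call did not hold among sites with an IDR of 0.001 or less (odds ratio 1.28, adjusted p = 0.0622 by Fisher's exact test), or without replicate 2, with as many of the strongest peaks of replicate 1 in place of the sites (odds ratio 1.22, adjusted p = 0.0701).

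The 1692 sites fell in 1045 genes, with 18 sites in introns of overlapping genes. Of the 9083 protein-coding genes with intron sequence that met the rule, 11.5% held a site and 1.74%, or 158 genes, held 3 or more. Those 158 genes held 621 sites (36.7%). The average over all eligible genes was 2.26 sites per Mb of such intron. By number, 685 genes had 1 site, 202 had 2, 94 had 3, and 33 had 5 or more.

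**Figure D4:**
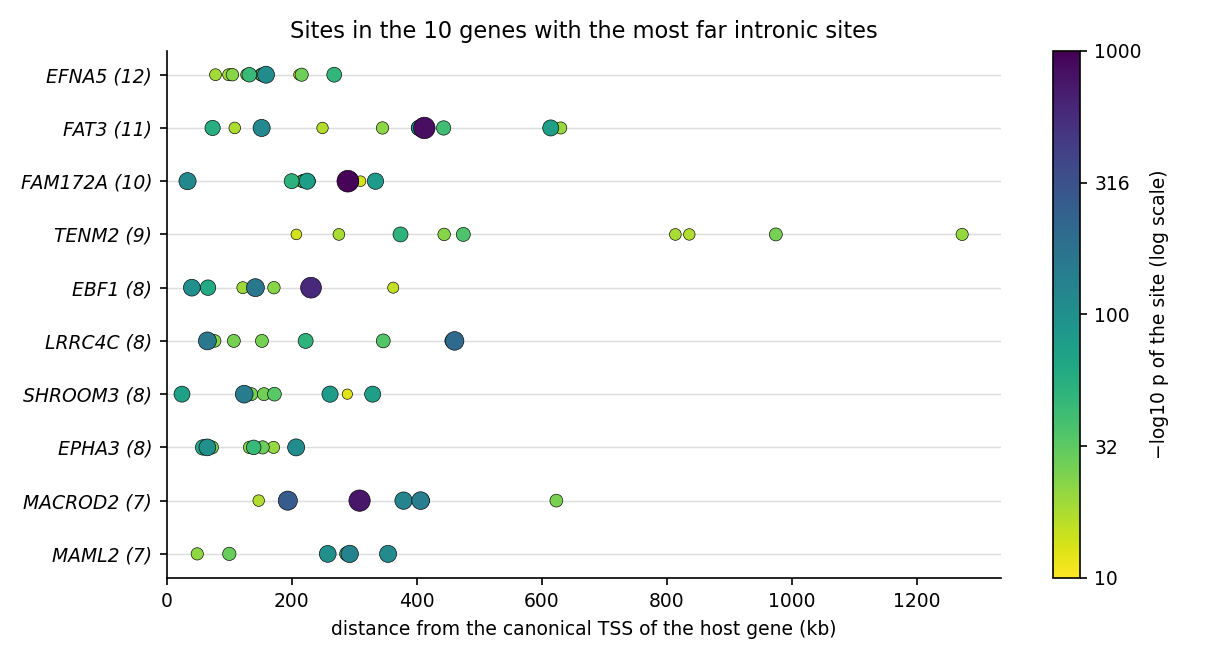
The 10 genes with the most far intronic sites, one per row, with each site placed at its distance from the TSS of the gene (horizontal axis, kb) and its −log10 p shown by colour and size on a log scale. Sites in EFNA5 lie between 77.9 and 268 kb from the TSS, and those in TENM2 between 207 and 1273 kb.

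The gene with the most far intronic sites was EFNA5, which encodes ephrin-A5, a membrane-bound guidance ligand. Its 12 sites, of which 11 were in intron 1, lay 77.9 to 268 kb from the TSS, or 44.6 per Mb. Their lowest, median and highest −log10 p were 12.7, 30.5 and 134 for replicate 1 and 18.1, 26.5 and 108 for replicate 2. All 12 had the EFNA5 TSS as the nearest, and 6 had TGACAG. EPHA3, which encodes a receptor for ephrin-A ligands including ephrin-A5, held 8 sites at 22.9 per Mb, 58.1 to 207 kb from its TSS. Their values were 20.6, 38.8 and 110 in replicate 1 and 22.6, 45.2 and 212 in replicate 2, and 4 had TGACAG.

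FAT3, an atypical cadherin of neurons, held 11 sites, of which 10 had TGACAG, beside 60.05% of all far intronic sites. The lowest, median and highest −log10 p of the 11 were 16.9, 56.1 and 1026 in replicate 1, and 20.6, 63.2 and 836 in replicate 2. For 6 of them the nearest TSS was not that of FAT3 but that of MTNR1B, a melatonin receptor gene beyond its end. FAM172A held 10 sites whose values were 13.8, 65.0 and 952 for replicate 1 and 33.8, 91.1 and 1232 for replicate 2. The nearest TSS was that of POU5F2 for 9 of these, and 5 of the 10 had TGACAG. MACROD2 held 7 sites with 17.4, 145 and 763 in replicate 1 against 17.6, 126 and 1092 in replicate 2. For 6 of them the nearest TSS was that of FLRT3, a membrane protein of axon guidance and adhesion whose gene lies within MACROD2. TGACAG was present at 3 of these 7 MACROD2 sites.

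TENM2, a teneurin that links synaptic partners, held 9 sites up to 1273 kb from its TSS, at 13.7, 24.9 and 50.6 in replicate 1 and 17.3, 27.7 and 73.6 in replicate 2. LRRC4C, which encodes netrin-G ligand 1, held 8 sites, all in intron 1, with 23.5, 44.9 and 253 in replicate 1 and 28.2, 37.8 and 211 in replicate 2. EBF1, a transcription factor, held 8 sites with 15.4, 42.0 and 586 in replicate 1 and 20.7, 90.7 and 806 in replicate 2. SHROOM3, which drives apical constriction of the neural plate, held 8 sites at 25.1 per Mb, with 12.5, 61.6 and 150 in replicate 1 and 25.8, 100 and 156 in replicate 2. MAML2, a coactivator of Notch, held 7 with 20.5, 34.7 and 132 in replicate 1 and 23.3, 82.0 and 158 in replicate 2. The number of sites in a gene thus went with no common strength, since TENM2 held 9 sites of 73.6 or less and MACROD2 fewer sites with a median above 100 in each replicate. TGACAG was present at 3 TENM2, 5 LRRC4C, 3 EBF1, 4 SHROOM3 and 2 MAML2 sites.

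Lists of genes by function are described next by the share of eligible genes that held a site, beside 11.5% over all eligible genes, and by sites per Mb of eligible intron, beside 2.26. The share of genes with a site also grows with intron length, which the density takes into account. No test was run on the lists. Of 11 lists, 7 had more sites per Mb than all eligible genes. The number was also 7 with an IDR of 0.001 or less and with the strongest peaks of either replicate in place of the sites. The lists were chosen with earlier results of these data known, and the repeats draw on the same peaks. They are therefore no independent check.

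**Figure D5:**
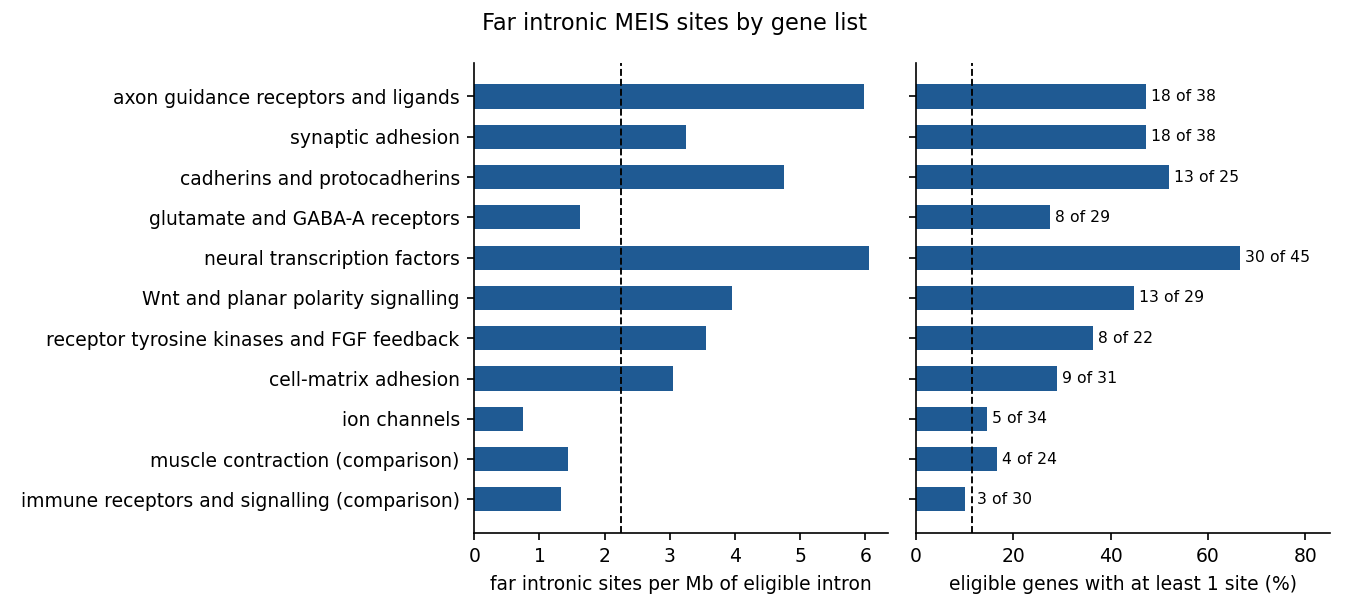
Bars starting at 0 give, for 11 gene lists, far intronic sites per Mb of eligible intron (left) and the percentage of eligible genes with a site (right). Dashed lines mark all eligible genes, at 2.26 sites per Mb and 11.5%, and the bars range from 6.05 per Mb for neural transcription factors to 0.752 per Mb for ion channels.

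Neural transcription factors had 6.05 sites per Mb, with 68 sites in 30 of 45 eligible genes. AUTS2 held 6, and TCF7L2, ZBTB16 and DACH1 4 each, while NFIA and EYA4 held none. TGACAG was present at 2 AUTS2, 4 TCF7L2, 1 ZBTB16 and 2 DACH1 sites. Axon guidance genes had 5.98 per Mb, with 55 sites in 18 of 38. The order of these lists turned without replicate 2, at 5.66 per Mb for axon guidance and 5.34 for neural transcription factors. Beside EFNA5 and EPHA3, SLIT2, a repellent ligand for ROBO receptors, held 6, of which 3 had TGACAG. SEMA5A held 4, all 4 with TGACAG. The strongest SEMA5A site, printed above, had a −log10 p of 984 and 1012 in replicates 1 and 2. SLIT3 and ROBO1, each with long introns, held none.

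Cadherins and protocadherins had 4.76 sites per Mb, with 36 sites in 13 of 25 genes, among them FAT3 with 11, PCDH9 with 5 and PCDH15 and CDH20 with 3 each. TGACAG was present at 2 PCDH9, 1 PCDH15 and 2 CDH20 sites. Wnt and planar polarity genes had 3.96, with 22 sites in 13 of 29, led by the glypican gene GPC6 with 5, of which 3 had TGACAG. Synaptic adhesion genes had 3.24, with 53 sites in 18 of 38, led by TENM2, LRRC4C and, with 6, the latrophilin gene ADGRL3. TGACAG was present at 3 of the ADGRL3 sites. IL1RAPL1 and NEGR1 held none. Receptor tyrosine kinases and FGF feedback genes had 3.55, with 16 sites in 8 of 22. NTRK2, the receptor for BDNF, held 6 of them, of which 5 had TGACAG, and NTRK3 and IGF1R none. Cell-matrix adhesion genes had 3.05, with 15 sites in 9 of 31.

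Glutamate and GABA-A receptor genes had 1.62 sites per Mb, with 14 sites in 8 of 29 genes, below the average of all eligible genes in density. Ion channel genes had 0.752, with 9 sites in 5 of 34, and KCNIP4 and CACNA1C held none. The lists taken for comparison were also low, at 1.44 for muscle contraction (7 sites in 4 of 24, of which 4 in PALLD, and none in DMD) and 1.34 for immune genes (5 sites in 3 of 30, of which 3 in BACH2).

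Of the 5 loci that the study inspected, 4 held far intronic sites. DACH1, a transcription factor of neural progenitors, had 4. The strongest, in intron 1 (chr13:72405806-72406733) 35.2 kb from the TSS, had a −log10 p of 78.0 and 91.7 in replicates 1 and 2. The others, in introns 1 and 2, had replicate 1 values from 14.9 to 19.0 and replicate 2 values from 19.2 to 29.7. The MEIS genes themselves each held one. The MEIS1 site in intron 7 (chr2:66734465-66736016) had 41.4 and 46.3, and the MEIS2 site in intron 8 (chr15:37273428-37274374) 79.7 and 40.7. NTNG1, which encodes netrin-G1, the partner of the LRRC4C protein, held a weak site in intron 5 (chr1:107962694-107963782) with 17.3 and 20.2. MDGA1 held none.

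At DACH1, 2 of the 4 sites had TGACAG in their windows and the others had none. The motifs of the sites that had it are shown in the same way as above. TGACAG is in capitals, and its centre lay between 1.5 and 46.5 bp from the summit.
DACH1, intron 1, chr13:72406149-72406208, minus strand: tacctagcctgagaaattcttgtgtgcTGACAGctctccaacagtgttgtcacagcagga
DACH1, intron 2, chr13:72213081-72213140, plus strand: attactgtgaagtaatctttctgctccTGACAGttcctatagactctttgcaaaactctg
MEIS1, intron 7, chr2:66734983-66735042, plus strand: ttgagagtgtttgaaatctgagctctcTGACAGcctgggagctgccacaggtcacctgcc
MEIS2, intron 8, chr15:37273960-37274019, minus strand: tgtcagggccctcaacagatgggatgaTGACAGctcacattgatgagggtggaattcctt
NTNG1, intron 5, chr1:107963371-107963430, plus strand: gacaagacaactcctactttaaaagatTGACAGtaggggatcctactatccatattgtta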

How the data were processed

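Chromatin of untreated hNSC was immunoprecipitated for MEIS in 2 replicates beside 2 Input samples and sequenced. Per the labels and methods, the authors trimmed reads with cutadapt 1.16, aligned them to GRCh37 with Bowtie2 2.3.0, filtered them with SAMtools 1.2 and Picard 2.15.0, called peaks against Input with MACS2 and kept reproducible peaks by IDR. The deposited lists give, per peak, a score from the IDR, a fold enrichment over Input, which is a ratio, and a −log10 p; no counts were used, so the depth is unknown. All sites had an IDR of at most 0.01. The list carries 8 further columns of values per replicate, which were not used. Replicate values were read from the peak lists of each replicate.

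Summits were placed in GENCODE 44 annotation mapped to GRCh37, with 1 canonical transcript per protein-coding gene. Consensuses were searched on both strands in 500 bp of reference around each summit. Far intronic and other sites were compared with two-sided Fisher's exact tests, an exact binomial test for strand, and Mantel-Haenszel tests within strata of GC content. P-values were adjusted by the Benjamini-Hochberg method over the 11 single comparisons and, apart from them, over the 13 consensuses. Shares carry Wilson 95% intervals, which cover counting error only. Scripts used Python 3.11.15, scipy 1.17.1, statsmodels 0.14.6 and pandas 2.3.3 and were tested on simulated data.

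The members, motifs and gene lists were chosen with earlier results of these data known. Named were the 10 far intronic sites with the highest −log10 p in the list, the 10 genes with the most such sites (ties by summed −log10 p), sites in MEIS1, MEIS2, MDGA1, NTNG1 and DACH1, the 5 strongest with the composite within 50 bp of the summit, up to 4 genes with the most sites and genes with the most eligible intron and none in each list, and the sites at both limits of distance. SEMA5A, from the lists, is shown as sequence also because its motif lay at the summit. A site among the 10 strongest is not reported here. Alternatives changed the transcript set, the distance limit, the IDR, the comparison group and the window, or left out a replicate.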

Additional observations from a re-analysis of the deposited data

How the results depend on the processing

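Of 212 alternative values, 169 were unchanged in direction and in call, or moved less than the limit set for counts and shares. The far intronic share was 28.8% with all protein-coding transcripts in place of the canonical ones, 35.9% beyond 10 kb and 25.1% beyond 50 kb. The rule then covered 23.3%, 30.7% and 18.0% of the called bases of the genome, beside 26.4% in the main setting. The share in intron 1 was 17.9% with all transcripts and 15.3% beyond 50 kb, without a matching share of intron sequence. With all protein-coding transcripts, the odds ratios of strength in replicate 2 (1.16), width (1.16) and GC content (0.858) passed the threshold, as did GC content beyond 50 kb (0.801). Strength in replicate 2, not called, turned to 0.960 with an IDR of 0.001 or less, 0.977 against intergenic sites and 0.930 without sites within 5 kb of any TSS. TGACAG at the summit turned to 1.04 against intergenic sites and 1.02 without sites near any TSS, and the share on the gene strand to 50.4% in 200 bp windows. The odds ratio of a neighbouring site was 1.28 and not called with an IDR of 0.001 or less, and that of any TSS within 5 kb turned to 0.745 with the basic set.

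Of the consensuses, 0 were called against intergenic sites and 0 without sites near any TSS. The GC box was 0.905 and not called in the first and turned to 1.11 in the second. The other consensuses that turned were not called in either fit. With all protein-coding transcripts these were SOX (0.994), FOX (1.003) and AP-1 (1.01), beyond 50 kb the POU octamer (1.03), with an IDR of 0.001 or less TAATT (0.993) and AP-1 (1.06), and in 200 bp windows AP-1 (1.03) and CTCF (0.684). Against intergenic sites they were the composite (1.04), SOX (0.931) and TAATT (0.991), and without sites near any TSS the composite (1.03), SOX (0.970) and NFI (0.980).

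To leave out a replicate, the strongest peaks of the remaining replicate stood in for the sites, in equal number. The share then ranged from 31.9% to 33.2%, GC content from 0.826 (called without replicate 2) to 0.917, a neighbouring site from 1.22 (not called without replicate 2) to 1.29, any TSS from 1.44 to 1.53, and 1 to 2 consensuses were called. AP-1 turned to 1.03 without replicate 1, and TEAD (1.04), FOX (1.03) and the POU octamer (1.0003) without replicate 2, from 0.923, 0.936 and 0.935 without replicate 1. The causes of these shifts were not tested.

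No paired analysis was possible because nothing was measured for Input alone, and MEIS ChIP was the only group with values. With no counts, depth could not be set against any value. Sites share 2 libraries of 1 kind of cell, mappability was not modelled, and the antibodies do not separate MEIS1 from MEIS2.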

Other observations

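After the 10 genes with the most far intronic sites, the order by number of sites, with ties by summed −log10 p, went on with 12 genes of 6 sites, among them MCTP1, SLIT2, ADGRL3, NTRK2 and AUTS2, which are described above. The others of 6 sites were as follows. CUBN, which encodes cubilin, a partner of the endocytic receptor megalin, had 22.8 sites per Mb of eligible intron and its strongest site had a −log10 p of 547. DCDC1 had 12.5 per Mb and reached 291. WWOX, an oxidoreductase gene of a common fragile site, had 10.2 per Mb and reached 161, and all 6 of its sites had TGACAG. VTI1A, a SNARE protein of vesicle fusion, had 17.3 per Mb and reached 111. ERC2, a scaffold of the presynaptic active zone, had 6.42 per Mb and reached 89.998. PTK2, the focal adhesion kinase, had 18.8 per Mb and reached 75.4, and 5 of its sites had TGACAG. NPAS3, a transcription factor of neurons, had 7.25 per Mb and reached 42.4, and 1 of its sites had TGACAG. Among the rest, TGACAG was present at 2 CUBN, 4 DCDC1, 4 VTI1A and 3 ERC2 sites. Next in this order, with 5 sites each, came PCDH9, described above, RERE, a nuclear receptor coregulator, whose strongest site reached 891, and SPOCK1, a proteoglycan of the extracellular matrix, which reached 277. These genes were named after their values were seen.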
